A study of Rattus norvegicus with 4 samples.

Results

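The glycolysis and hypoxia response genes examined here are 33 genes chosen by symbol, of which 32 have a row among the 30560 genes of the count tables. Pgk1 has no row and was not analysed here. By role they comprise 16 glycolytic enzymes and regulators, 3 genes that set the fate of pyruvate, 4 genes for oxygen sensing and HIF subunits, and 9 effectors that hypoxia induces.

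The study sequenced single-cell RNA of wild-type rats in droplet libraries. There were 2 libraries from skin and 2 from the subcutaneous fascia, a loose sheet of connective tissue beneath it, both from the abdominal midline. All 4 libraries came from tissue that was digested to single cells with enzymes and cleared of dead cells, and no group was treated. Strain, age and sex were not used here, and the labels do not say that the libraries came from separate animals, so p-values measure only the spread between these libraries. With 2 libraries against 2, an exact permutation test of one value could not pass the threshold, and the tests are edgeR's quasi-likelihood tests fitted over all genes on UMI counts summed per cell class and library.

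Glycolysis splits glucose into pyruvate and yields ATP without oxygen, and lactate dehydrogenase then turns pyruvate into lactate so that the pathway can go on. Cells sense oxygen through prolyl hydroxylases of the Egln family, which mark the alpha subunits of the hypoxia-inducible factors (HIF) for degradation when oxygen is present. When oxygen falls, the stabilised alpha subunits, encoded by Hif1a and Epas1, switch on glycolytic enzymes and effectors that reduce mitochondrial respiration, dilate vessels and fold collagen. Hif1a is controlled largely at the protein level, which RNA counts do not measure. The epidermis has no vessels of its own and is a tissue in which HIF activity is known.

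HIF binds a short core in DNA, so promoters of 5 members that the results turn on are shown first, as 250 bases before the annotated start. The windows come from RefSeq on the GRCr8 build, each written 5′ to 3′ on the gene's own strand, which is the minus strand for Epas1 and the plus strand for the other 4. Capitals mark every match to ACGTG or GCGTG on either strand, with overlapping matches merged. Ndufa4l2, chosen for the widest difference between tissues, lies at chr7:65241919-65242168. Hif1a, the oxygen-regulated subunit, lies at chr6:98359648-98359897. Ldha, the lactate dehydrogenase subunit of glycolytic tissues, lies at chr1:106507842-106508091. P4ha2, a collagen prolyl hydroxylase subunit, lies at chr10:38743644-38743893. Epas1, the HIF subunit known from endothelium, lies at chr6:13624730-13624979.
Ndufa4l2: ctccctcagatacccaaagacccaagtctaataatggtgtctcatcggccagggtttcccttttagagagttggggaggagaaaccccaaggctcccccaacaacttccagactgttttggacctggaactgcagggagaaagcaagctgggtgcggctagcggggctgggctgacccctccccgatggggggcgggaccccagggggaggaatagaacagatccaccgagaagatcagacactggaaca
Hif1a: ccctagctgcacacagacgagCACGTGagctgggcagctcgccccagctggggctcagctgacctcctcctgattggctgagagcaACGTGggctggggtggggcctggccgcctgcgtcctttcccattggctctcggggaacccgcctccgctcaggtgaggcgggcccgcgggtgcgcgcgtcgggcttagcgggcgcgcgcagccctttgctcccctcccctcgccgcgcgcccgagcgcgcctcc
Ldha: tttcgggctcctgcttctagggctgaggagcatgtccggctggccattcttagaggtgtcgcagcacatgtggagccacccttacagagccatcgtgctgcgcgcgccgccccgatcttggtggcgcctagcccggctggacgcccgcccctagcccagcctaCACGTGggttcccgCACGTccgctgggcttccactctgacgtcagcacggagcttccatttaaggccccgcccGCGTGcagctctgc
P4ha2: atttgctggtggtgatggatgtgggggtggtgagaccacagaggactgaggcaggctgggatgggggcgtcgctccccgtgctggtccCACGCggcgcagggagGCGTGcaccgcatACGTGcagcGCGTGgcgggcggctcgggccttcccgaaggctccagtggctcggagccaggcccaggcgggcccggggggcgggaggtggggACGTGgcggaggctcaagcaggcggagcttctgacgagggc
Epas1: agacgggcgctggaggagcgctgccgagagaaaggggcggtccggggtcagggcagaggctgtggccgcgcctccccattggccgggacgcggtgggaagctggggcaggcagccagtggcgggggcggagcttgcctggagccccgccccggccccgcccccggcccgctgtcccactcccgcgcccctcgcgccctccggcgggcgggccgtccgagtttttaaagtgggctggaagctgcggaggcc

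The P4ha2 window holds 5 separate cores, that of Ldha holds 3 and that of Hif1a holds 2. The windows of Ndufa4l2 and Epas1 hold none, as do those of Adm and Egln3, which are not shown. This says only that these letters are not in these bases. At least 1 core was present in 36.7% of the 33469 RefSeq promoter windows of this length and at least 3 in 4.38%. Among the 31 members with a window, 22 (70.97%) had at least 1 core and 7 (22.58%) had at least 3, counting the richest window of a gene. By the same count over the 27457 genes with a symbol, 39.57% had at least 1. A match is a description of the sequence and shows no binding.

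The libraries held 7945 and 17527 barcodes from skin and 7697 and 7712 from fascia, with total UMI counts between 83852172 and 95777810. After filters on genes, mitochondrial UMIs and doublets, 7015 and 14279 skin cells and 6602 and 6820 fascia cells remained. The second skin library was far shallower per cell, with a median of 2457 UMIs against 8859 in the first skin library and 12680 and 10330 in fascia, and 41.8% of its cells had under 2000 UMIs. Any pair of libraries shared between 16 and 26 barcodes, at most 0.36% of a library's cells. Cell classes were set by marker scores, not by an annotation of the study, and are therefore named "-like". The tissue labels matched the classes in that skin held 5317 and 9342 keratinocyte-like cells and fascia 0 and 1. The 6 classes compared had at least 20 cells in each library: fibroblast-like, blood endothelial-like, mural-like, macrophage- or monocyte-like, dendritic-like and T or NK lymphocyte-like cells. The skin side of these classes was thin, down to 40 and 21 macrophage-like, 48 and 90 T or NK-like and 71 and 22 dendritic-like cells. Between 0.0% and 18.8% of a library's cells in these classes lay within 0.05 of a cut. The cuts were the score that admits a cell and the limit on another lineage's score relative to it. The highest median score of another class's list in any of them was 0.48, for the dendritic list in fascia macrophage-like cells. Their own list had a median of 0.897.

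The 32 genes together gave a smaller share of UMIs in fascia than in skin in 5 of the 6 classes, with libraries that did not overlap, but in 3 of the 5 that separation needed 1 gene. In fibroblast-like cells the share was 0.368% and 0.299% in the 2 skin libraries and 0.244% and 0.230% in the 2 fascia libraries, a ratio of fascia to skin of 0.710. Without Ndufa4l2, an alternative chosen after seeing the data, it was 0.248% and 0.242% in skin and 0.244% and 0.230% in fascia, a ratio of 0.967 with libraries that overlapped. Mural-like cells, the contractile cells of vessel walls, had 0.377% and 0.364% in skin and 0.308% and 0.302% in fascia, a ratio of 0.824. Macrophage-like cells gave 0.260% and 0.215% in skin and 0.195% and 0.178% in fascia, a ratio of 0.784. The ratio was 0.876 in blood endothelial-like and 0.869 in dendritic-like cells, and the libraries overlapped there too once Ldha (ratio 0.964) or Pgam1 (ratio 0.948) was left out, respectively. With any 1 of the 32 members left out in turn, also chosen after seeing the data, the libraries of mural-like and macrophage-like cells still did not overlap, at ratios between 0.808 and 0.851 and between 0.755 and 0.832. T or NK-like cells gave 0.354% and 0.352% in skin and 0.382% and 0.295% in fascia, so these groups overlapped. These shares are descriptions and were given no test. Within fibroblast-like cells the effectors took 0.225% and 0.160% of UMIs in skin and 0.0806% and 0.0902% in fascia, and without Ndufa4l2 0.104% and 0.103% in skin and 0.0804% and 0.0899% in fascia. The glycolytic enzymes took 0.0881% and 0.0914% of UMIs in skin and 0.1135% and 0.0993% in fascia. A share is scaled to total counts, which puts the median log2 difference of all genes in these cells at 0.35. With the scaling of the tests the median of the 15 glycolytic enzymes tested was -0.12, with 9 below 0.

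**Figure D1:**
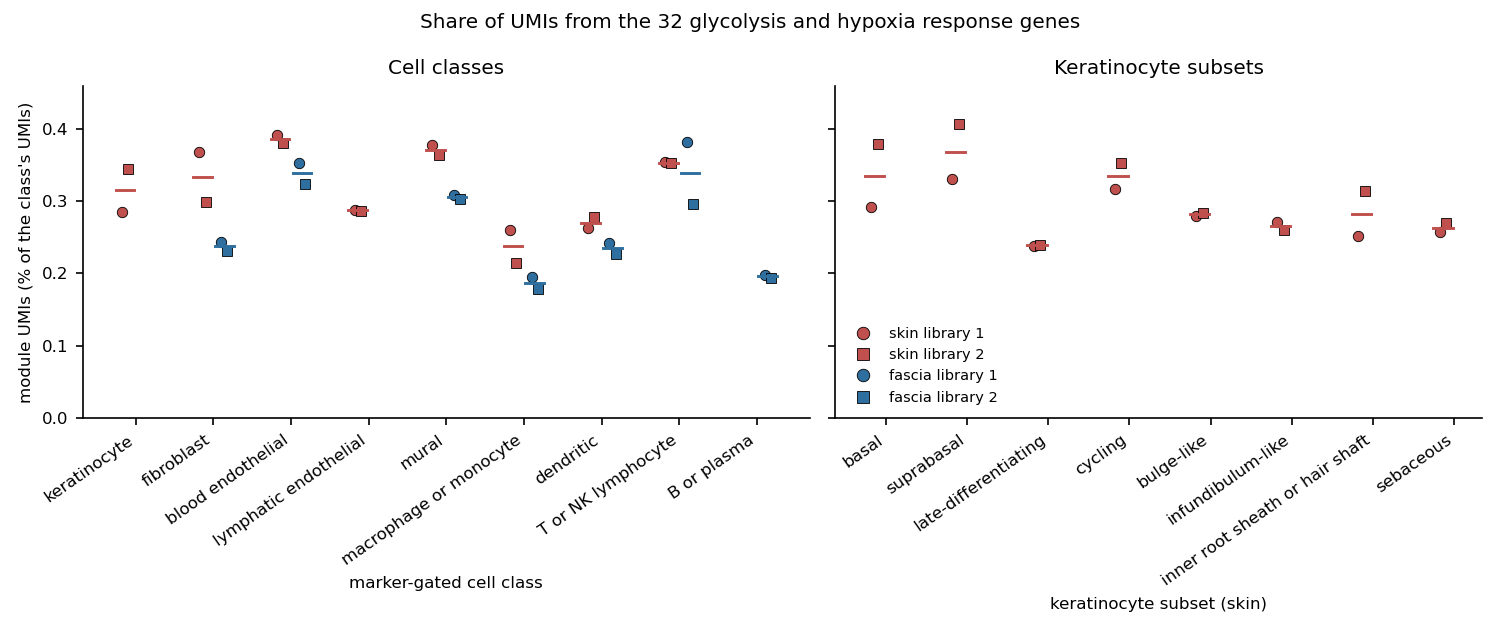
Share of a class's UMIs that came from the 32 genes, in percent, for marker-gated cell classes (left) and keratinocyte subsets of skin (right); each point is 1 library and each bar the mean of a tissue's libraries. Skin lies above fascia in 5 of the 6 classes present in both tissues, and suprabasal cells reach 0.406% in the second skin library while late-differentiating cells sit at 0.238% and 0.239%.

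Which members differed between fascia and skin was tested within each class over all genes. Of 157 member-class pairs tested, 40 passed an adjusted p of 0.05, 32 lower and 8 higher in fascia, from 21 different members. In fibroblast-like cells 6 of 31 tested members were lower (9.96% of all genes tested there were) and 1 was higher (5.39% of all genes). In blood endothelial-like cells 8 of 29 were lower (11.4% of all genes) and 2 higher (6.71%). In mural-like cells 8 of 30 were lower (10.8%) and 1 higher (7.65%). Macrophage-like cells had 4 of 24 lower (5.81%) and 1 higher (3.01%). Dendritic-like cells had 3 of 20 lower (15.1%) and 3 higher (13.7%), so their share of lower calls was at the background. T or NK-like cells had 3 of 23 lower (8.64%), and 0 were called higher (4.74% of all genes) by edgeR, with 0 at an unadjusted p under 0.05 and 0 by DESeq2. The members' median log2 difference, fascia minus skin, was -0.52 in fibroblast-like cells against 0.04 over all genes tested, -0.65 against 0.08 in blood endothelial-like, -0.45 against 0.10 in mural-like, -0.47 against 0.27 in macrophage-like, -0.14 against 0.09 in dendritic-like and 0.00 against 0.07 in T or NK-like cells.

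These counts depend on the scaling between libraries and on single libraries. With each library scaled to its total counts alone, an alternative chosen after seeing the data, the members' calls were 24 lower and 11 higher, and the median of all genes moved to 0.52 in blood endothelial-like, 0.53 in macrophage-like, 0.49 in mural-like and 0.35 in fibroblast-like cells. Under that scaling the share of higher calls among all called genes rose from 37.1% to 73.1% in blood endothelial-like, from 41.5% to 75.0% in mural-like, from 34.1% to 62.6% in macrophage-like and from 35.1% to 50.7% in fibroblast-like cells. Leaving out 1 library at a time left 11 calls without the first fascia library, 17 without the second, 28 without the first skin library and 53 without the second. A set of 6 of the 40 calls held in all 4 of these fits: Ndufa4l2 and Aldoc in fibroblast-like, Hk2 and Ddit4 in mural-like, and P4ha1 in blood endothelial-like and T or NK-like cells. Each of the other 34 lost its call in at least 1.

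The genes that tissue digestion is known to induce also differed between the tissues. Of 14 immediate early and heat shock genes on a list for the dissociation response, 9 were lower in fascia in fibroblast-like cells, 11 in mural-like, 11 in macrophage-like, 7 in blood endothelial-like, 7 in dendritic-like and 3 in T or NK-like cells, and 1, Egr1, was higher, in dendritic-like cells. Over all genes tested the lower calls were between 5.81% and 15.1% in these classes. Their summed level in fibroblast-like cells was 18690 and 29730 UMIs per 1000000 (CPM) in skin and 4127 and 7224 in fascia. In T or NK-like cells it was 7575 and 17330 CPM in skin and 8176 and 6383 in fascia, which overlapped, and in the mural-like class 25710 and 33330 in skin against 17860 and 9706 in fascia. The part of this response in the members' differences was not tested. The cells of a class also lay partly in different unsupervised clusters in the 2 tissues. Fibroblast-like cells lay mainly in cluster 22 in the first skin library (86.8%) and in cluster 3 in fascia (64.4% and 58.1%). Blood endothelial-like cells lay mainly in cluster 19 in skin and 8 in fascia. Dendritic-like cells lay most often in cluster 26 in skin and cluster 14 in fascia. Cluster 14 also held 35.2% and 40.9% of the dendritic-like cells of the skin libraries. Leading genes of the class included Cd207 in skin and Ccl17 in fascia. Mural-like cells lay mainly in cluster 28 in skin (67.2% and 85.3%) and 4 in fascia (64.8% and 56.9%). T or NK-like cells lay mainly in cluster 35 in the first skin library (68.8%) and most often in 18 elsewhere. Macrophage-like cells lay mainly in cluster 10 in skin and in the second fascia library. The part of these clusters in the members' differences was not tested. In the second skin library 34.2% of the fibroblast-like cells lay in cluster 2, which had no name and scored best for keratinocytes. When classes were instead taken from named clusters, which leaves these cells out, 37 member-class pairs were called in place of 40. That setting also leaves out cluster 26, which had no name either and held 63.4% and 45.5% of the skin dendritic-like cells.

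**Figure D2:**
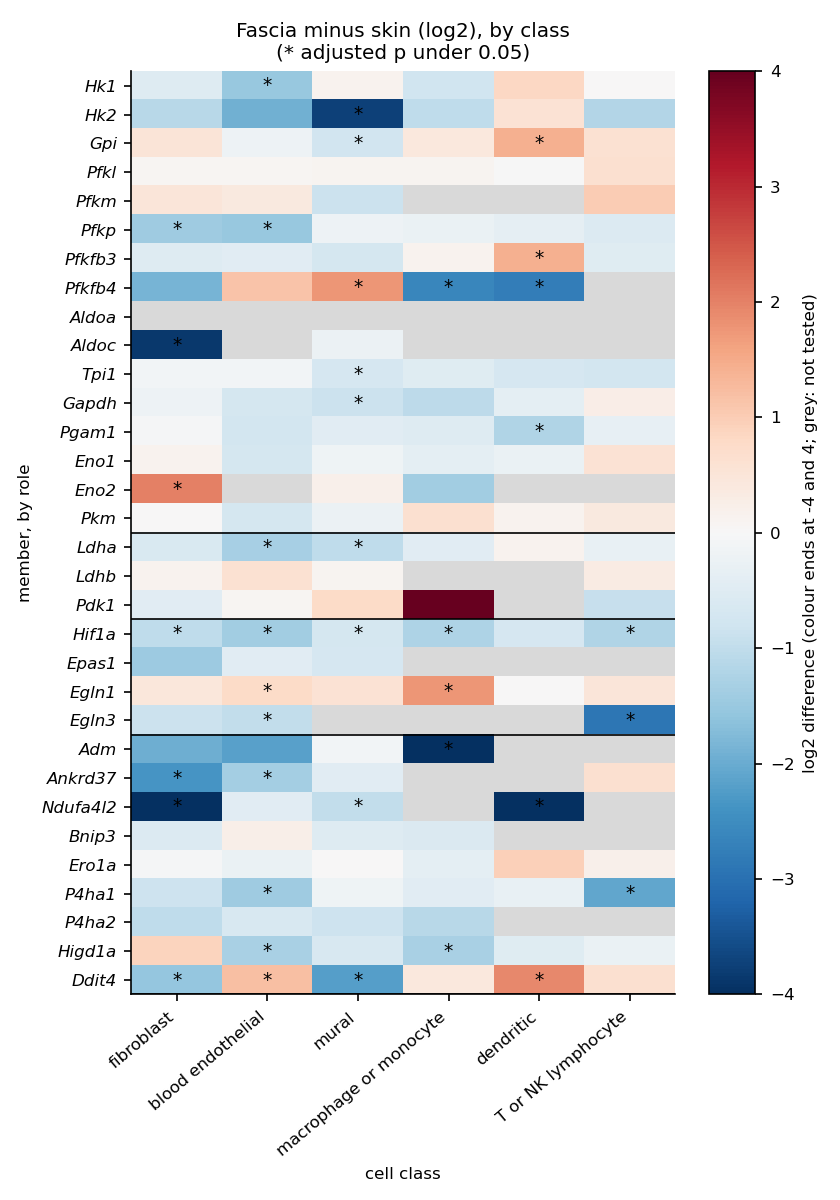
Difference between fascia and skin (log2, fascia minus skin; colour ends at -4 and 4) for each member, in rows ordered by role, in each of the 6 classes, in columns; an asterisk marks an adjusted p under 0.05 and grey a pair not tested. Hif1a is blue in every column and starred in 5 of 6, while Ddit4 is blue in fibroblast and mural cells and red in the other 4.

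Among the oxygen sensors and HIF subunits, Hif1a RNA was lower in fascia than in skin in all 6 classes, with libraries that did not overlap, and passed the test in 5. In blood endothelial-like cells Hif1a measured 405.6 and 337.5 CPM in skin and 196.3 and 194.9 in fascia, a log2 difference of -1.39 ± 0.26 (SE; adjusted p = 0.0183). T or NK-like cells had 355.5 and 423.6 CPM in skin and 171.5 and 185.3 in fascia (-1.21 ± 0.29; adjusted p = 0.0261). Both skin libraries of these 2 classes were above both fascia libraries by a wide margin. Fibroblast-like cells, the lowest class for Hif1a in either tissue, had 90.11 and 83.32 CPM in skin and 53.02 and 54.86 in fascia (-1.02 ± 0.21; adjusted p = 0.0354). Macrophage-like cells had 96.51 and 158.5 CPM in skin and 54.32 and 62.74 in fascia (-1.23 ± 0.29; adjusted p = 0.0283). In mural-like cells the gap was narrow, 158.9 and 126.9 CPM in skin and 111.0 and 113.5 in fascia (-0.695 ± 0.205; adjusted p = 0.0392). Dendritic-like cells, with 92.28 and 172.1 CPM in skin and 63.89 and 83.77 in fascia, did not pass (-0.68 ± 0.32; adjusted p = 0.14). With total counts as the only scaling Hif1a lost its call in fibroblast-like (-0.69; adjusted p = 0.06) and mural-like cells (-0.32; adjusted p = 0.253). With 1 library left out the difference stayed below 0, between -1.64 and -0.32 over the 6 classes, but the call was lost in all 5 classes without either fascia library, in fibroblast-like and macrophage-like cells also without the first skin library, and in macrophage-like cells also without the second. The tissue difference of Hif1a in one class was not found to differ from the mean of the other classes (adjusted p between 0.329 and 1.0).

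Epas1, the HIF alpha subunit known from endothelium, was not called in either vessel class. It measured 165.9 and 240.8 CPM in skin and 210.9 and 192.9 in fascia in blood endothelial-like cells (-0.44; adjusted p = 0.166). In mural-like cells it measured 310.3 and 238.8 CPM in skin and 203.9 and 240.8 in fascia (-0.66; adjusted p = 0.0649). The libraries of the 2 tissues overlapped in both classes. The prolyl hydroxylases went apart. Egln1, the main oxygen sensor, was higher in fascia in blood endothelial-like cells, with 35.1 and 51.8 CPM in skin and 110.9 and 89.4 in fascia (0.78 ± 0.20; adjusted p = 0.0459), and in macrophage-like cells, with 15.65 and 9.325 in skin and 63.93 and 53.46 in fascia (1.78 ± 0.47; adjusted p = 0.0428). Egln3, the prolyl hydroxylase that HIF itself induces, was lower in fascia in T or NK-like cells, with 74.22 and 43.23 CPM in skin and 11.78 and 5.609 in fascia (-2.88 ± 0.48; adjusted p = 0.00505). It was also called lower in blood endothelial-like cells, at 17.33 and 24.33 CPM in skin and 14.46 and 13.89 in fascia (-0.98; adjusted p = 0.0408). That call was lost with total counts as the only scaling (-0.54; adjusted p = 0.209) and did not hold in every leave-out fit. Egln1 has 6 RefSeq pseudogenes, so some of its reads may be shared. The macrophage-like cells of skin held only 383375 and 107241 UMIs in all, so their Egln1 levels rest on very few UMIs. The calls of Egln1 in macrophage-like cells were lost without any one of the 4 libraries, with the difference between 1.57 and 2.55, and those in blood endothelial-like cells without either fascia library or the first skin library, between 0.66 and 0.92. The call of Egln3 in T or NK-like cells was lost without the second fascia library, where its difference stayed between -3.33 and -2.24 over the 4 fits.

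Ndufa4l2, a mitochondrial protein that hypoxia induces and that limits respiration, showed the widest difference of any called member. Fibroblast-like cells had 1203 and 573.5 CPM in skin and 1.508 and 2.887 in fascia, a fold of 404 between the means and a log2 difference of -9.10 ± 0.78 (adjusted p = 0.00891). Both skin libraries lay far above both fascia libraries. Leaving out any 1 library kept the call, with a difference between -9.71 and -8.29. The gene was not shut off in fascia as a whole: mural-like cells had 508.9 and 251.6 CPM in skin and 215.2 and 270.9 in fascia. These libraries overlapped, and the call there (-0.98 ± 0.30; adjusted p = 0.0454) was lost without either fascia library or the first skin library (between -1.38 and -0.44), and with total counts as the only scaling (-0.61; adjusted p = 0.165). Set against the mean of the other classes, the tissue difference of Ndufa4l2 was -6.19 in fibroblast-like and 3.61 in mural-like cells, both past the test. For mural-like cells that mean includes the -9.10 of fibroblast-like cells, and their own difference was below 0. The remaining classes were under 20 CPM in every library.

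The share of skin fibroblast-like cells with Ndufa4l2 was high and differed between the skin libraries. With each cell thinned to 2000 UMIs, 74.4% (95% exact interval 69.4% to 78.9%; 89.6% without thinning) of the cells of the first skin library and 36.7% (32.1% to 41.4%; 44.4% without thinning) of those of the second had a UMI. In fascia the thinned shares were 0.149% and 0.718% (1.21% and 3.33% without thinning). Thinning left out 10 and 229 shallower cells of skin and 36 and 25 of fascia. Skin T or NK-like cells had 0 of 44, which allows a share of up to 6.82% by a limit of 3 counts, and 2.63% of 76. The median depths were 12455 and 4160 UMIs in the skin fibroblast-like and 5237.5 and 3663 in the skin T or NK-like cells. Intervals cover counting error only. The top 10% of cells held 31.7% of the Ndufa4l2 UMIs in the first skin library and 67.9% in the second. Keratinocyte-like cells also carry the gene, and the 18 keratinocyte markers summed to 510.3 and 2322 CPM in skin fibroblast-like cells against 26.32 and 32.98 in fascia. In the T or NK-like cells of skin these markers summed to 2324 and 1331 CPM and Ndufa4l2 was at 0 and 8.646 CPM. These cells gave only 255980 and 346986 UMIs in all. How much keratinocyte RNA added to the Ndufa4l2 of skin fibroblast-like cells was not tested. Mural markers in fibroblast-like cells summed to 331 and 443.5 CPM in skin and 194.4 and 323.4 in fascia.

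**Figure D3:**
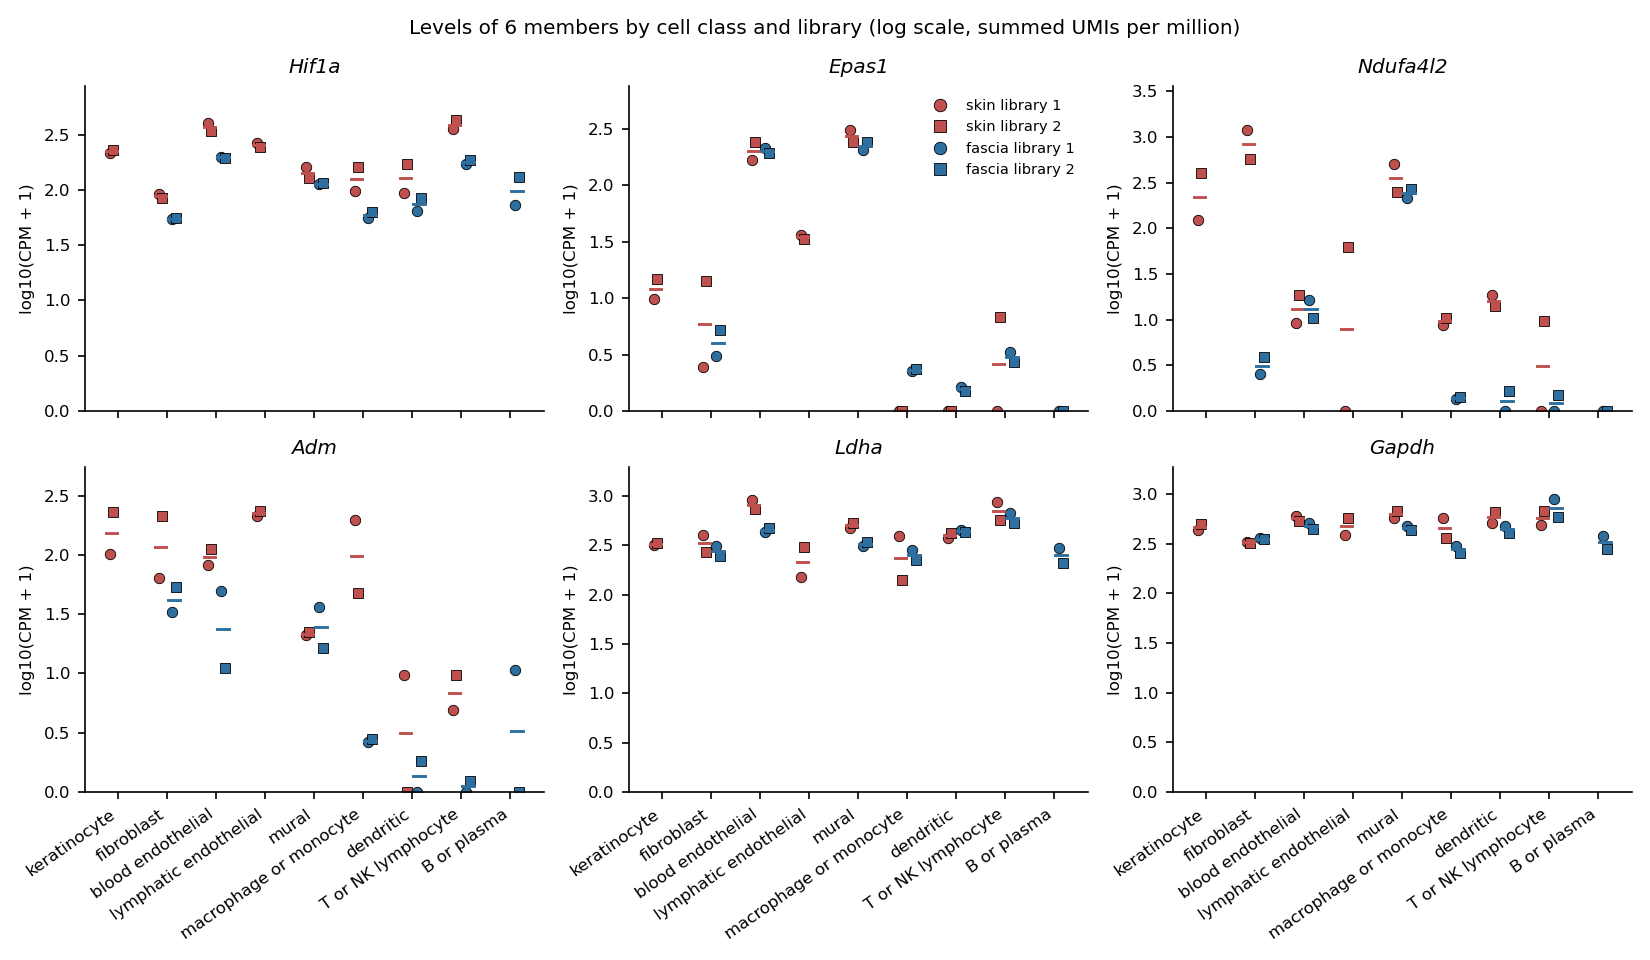
Levels of 6 members on a log scale, log10(CPM + 1), by cell class; each point is 1 library, red for skin and blue for fascia, and each bar the mean of the plotted values. Ndufa4l2 drops from 1203 and 573.5 CPM in skin fibroblast-like cells to 1.508 and 2.887 in fascia, Epas1 is high in the 2 vessel classes of both tissues, and Gapdh spans class means of 277.9 CPM in fascia macrophage-like to 743.0 in fascia T or NK-like cells.

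The other effectors moved by class. Ddit4, an inhibitor of mTOR signalling induced by hypoxia and other stress, was lower in fascia in mural-like cells, with 104.3 and 171.8 CPM in skin and 49.4 and 33.47 in fascia (-2.19 ± 0.29; adjusted p = 0.000407), and in fibroblast-like cells, with 86.95 and 72.38 in skin and 34.83 and 33.95 in fascia (-1.55 ± 0.24; adjusted p = 0.0215). It was higher in fascia in blood endothelial-like cells, with 142.8 and 172.2 CPM in skin and 583.4 and 402.8 in fascia (1.20 ± 0.24; adjusted p = 0.0233). Dendritic-like cells likewise had 45.27 and 26.47 CPM in skin and 175.2 and 133.7 in fascia (1.92 ± 0.35; adjusted p = 0.00378). In none of these 4 classes did the libraries of the tissues overlap, and a test of the tissue difference against the mean of the other classes passed in each, at -2.67 in mural-like, -2.02 in fibroblast-like, 1.27 in blood endothelial-like and 2.24 in dendritic-like cells. In that test across classes 24 of 192 member-class pairs passed, where 5.91% of all gene-class pairs did. The direction of Ddit4 held in every leave-out fit, between -2.49 and -1.21 where lower and between 0.98 and 2.64 where higher. Its call was lost in fibroblast-like cells without either fascia library, in dendritic-like cells without the first fascia library, and in blood endothelial-like cells without the first fascia library or either skin library.

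P4ha1, the catalytic subunit of collagen prolyl hydroxylase, was lower in fascia in blood endothelial-like cells, with 125 and 133.5 CPM in skin and 72.2 and 59.2 in fascia (-1.43 ± 0.19; adjusted p = 0.0081). T or NK-like cells had 152.4 and 109.5 CPM of P4ha1 in skin and 27.8 and 35.85 in fascia (-2.07 ± 0.29; adjusted p = 0.002). Higd1a, a mitochondrial protein induced by hypoxia, was lower in fascia in blood endothelial-like cells, with 124.6 and 99.83 CPM in skin and 64.15 and 62.56 in fascia (-1.30 ± 0.24; adjusted p = 0.019), and in macrophage-like cells (-1.29 ± 0.30; adjusted p = 0.0264). The skin and fascia libraries did not overlap in any of these. In fibroblast-like cells Higd1a stood the other way, also with no overlap, at 120.2 and 122.0 CPM in skin and 253.3 and 306.7 in fascia, but did not pass (0.885 ± 0.228; adjusted p = 0.0605). The Higd1a calls were lost without either fascia library, and in macrophage-like cells also without the first skin library, where the differences over both classes lay between -1.57 and -0.65. Adm encodes adrenomedullin, a peptide that widens vessels. In macrophage-like cells it measured 195.6 and 46.62 CPM in skin and 1.615 and 1.792 in fascia (-6.70 ± 0.53; adjusted p = 9e-05). That value rests on 75 and 5 UMIs in skin, and 4 cells held 94.67% of the UMIs of the first skin library. Without that library the difference was -4.86 and the call was lost.

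Among the glycolytic enzymes, the first step differed in vessel cells. Hk2, the hexokinase that is induced by insulin and hypoxia, measured 59.58 and 47.75 CPM in skin mural-like cells and 4.719 and 5.364 in fascia, a log2 difference of -3.73 ± 0.26 (adjusted p = 7.2e-06). This was a fold of 10.6 with no overlap, and the call held in every leave-out fit, between -3.87 and -3.63. Hk1, the widely expressed hexokinase, was lower in fascia in blood endothelial-like cells, with 111.4 and 84.85 CPM in skin and 53.34 and 42.42 in fascia (-1.52 ± 0.26; adjusted p = 0.016). Its call was lost without the second fascia library, where the difference over the leave-out fits lay between -1.82 and -1.12. Against the mean of the other classes, the tissue difference was -2.79 for Hk2 in mural-like and -1.57 for Hk1 in blood endothelial-like cells, both past the test.

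Pfkp, the platelet form of phosphofructokinase, was lower in fascia in fibroblast-like cells, with 36.2 and 42.5 CPM in skin and 18.4 and 17.9 in fascia (-1.43 ± 0.17; adjusted p = 0.0136), and in blood endothelial-like cells, with 73.9 and 55.5 in skin and 30.01 and 33.21 in fascia (-1.51 ± 0.27; adjusted p = 0.0169). Both calls were lost without the first fascia library, with the differences between -1.81 and -1.09. Pfkfb4, which makes the sugar phosphate that activates phosphofructokinase, was lower in fascia in both myeloid classes. Macrophage-like cells had 127.8 and 74.6 CPM in skin and 14.45 and 29.63 in fascia (-2.60 ± 0.46; adjusted p = 0.00739), and dendritic-like cells had 156.7 and 59.56 in skin and 14.55 and 20.98 in fascia (-2.75 ± 0.40; adjusted p = 0.00102). Neither pair of groups overlapped. The calls were lost without the first skin library in both classes and without the first fascia library in dendritic-like cells, with the differences between -3.17 and -1.56. In mural-like cells Pfkfb4 was instead called higher in fascia, at low levels of 2.482 and 3.564 CPM in skin and 12.09 and 17.38 in fascia (1.76 ± 0.55; adjusted p = 0.048). Its sister gene Pfkfb3 was called higher in fascia in dendritic-like cells, from 17.41 and 46.33 CPM in skin and 54.4 and 77.49 in fascia (1.43 ± 0.45; adjusted p = 0.0393), and that call was lost without either fascia library or the first skin library (between 0.67 and 1.93).

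Eno2, the enolase form known from neurons, was the one glycolytic enzyme called higher in fascia fibroblast-like cells, with 7.79 and 16.25 CPM in skin and 70.3 and 46.0 in fascia (2.01 ± 0.34; adjusted p = 0.0251). The call was lost without the first library of either tissue, with the difference between 1.70 and 2.41. Pgam1, phosphoglycerate mutase, was lower in fascia dendritic-like cells, with 449.2 and 383.9 CPM in skin and 174 and 190.7 in fascia (-1.21 ± 0.26; adjusted p = 0.00747), and lost its call without either fascia library (between -1.33 and -0.95). Gpi, which isomerises glucose phosphate, was higher in fascia in dendritic-like cells (1.42 ± 0.41; adjusted p = 0.03) and lower in mural-like cells (-0.75 ± 0.21; adjusted p = 0.0282). Both Gpi calls were lost without either fascia library, and the first also without the first skin library (0.69 to 2.03 and -0.83 to -0.65). Gapdh, the dehydrogenase of mid glycolysis, was called in mural-like cells alone, with 578.4 and 684.2 CPM in skin and 473 and 435.8 in fascia (-0.86 ± 0.23; adjusted p = 0.0247), and not with total counts as the only scaling (-0.48; adjusted p = 0.114). The mural calls of Gpi and of Tpi1, triosephosphate isomerase (-0.66; adjusted p = 0.0477), were also lost under that scaling, and those of Gapdh and Tpi1 without either fascia library (between -0.98 and -0.61). Gapdh, Pgam1, Eno1, Ldha and Pkm have between 13 and 81 pseudogenes each in RefSeq, so their counts may be split among copies. Aldoa, aldolase A, was near 0 in every class and was tested in none. It has 9 pseudogenes in RefSeq. Whether its counts reflect the level of its RNA or the annotation used for counting was not tested.

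Ldha turns pyruvate into lactate. It was lower in fascia in blood endothelial-like cells, with 903.6 and 736.8 CPM in skin and 430.0 and 473.8 in fascia (-1.33 ± 0.30; adjusted p = 0.0311), and in mural-like cells, with 479.1 and 529.6 in skin and 313.3 and 341.2 in fascia (-1.005 ± 0.22; adjusted p = 0.0094). The groups did not overlap in either. Both calls were lost without either fascia library, and the endothelial one also without the first skin library, with the differences between -1.59 and -0.86. In the other 4 classes Ldha was not called. Pdk1, the kinase that keeps pyruvate out of mitochondria, and Ldhb, the lactate dehydrogenase subunit of oxidative tissues, were called in no class.

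Other genes of these pathways were taken from lists drawn up by known function. Of 30 other hypoxia response genes with a row, 8 of 23 tested were lower in fascia in fibroblast-like (9.96% of all genes were), 8 of 23 in blood endothelial-like (11.4%), 8 of 16 in dendritic-like (15.1%), 7 of 20 in macrophage-like (5.81%), 5 of 24 in mural-like (10.8%) and 3 of 16 in T or NK-like cells (8.64%). In mural-like cells 3 were higher (7.65%), and in each of the other classes 1, against 3.01% to 13.7% of all genes. Hilpda, a HIF target that protects lipid droplets, measured 93.48 and 70.91 CPM in skin fibroblast-like cells and 18.97 and 22.92 in fascia (-2.33 ± 0.30; adjusted p = 0.0153), and was called lower in 5 of the 6 classes. Slc2a1, the main glucose transporter, was lower in fascia in fibroblast-like (-2.12), blood endothelial-like (-2.72), dendritic-like (-2.05) and macrophage-like cells (-5.53). Vegfa, the vessel growth factor, measured 336 and 165.5 CPM in skin dendritic-like cells and 5.061 and 4.131 in fascia (-5.93 ± 0.42; adjusted p = 3.47e-05). In fibroblast-like cells Vegfa did not pass, with 193.1 and 174.3 CPM in skin and 198.4 and 190.9 in fascia. Bnip3l, a mitophagy receptor, went the opposite way and was higher in fascia in dendritic-like (0.88), macrophage-like (1.31) and mural-like cells (1.20). Of the other glycolysis genes tested, 1 was higher and 4 were lower of 21 in fibroblast-like, 2 and 1 of 20 in blood endothelial-like, 3 lower of 21 in mural-like and 1 lower of 18 in macrophage-like cells. Set beside the shares of all genes just given, the lower counts in mural-like, macrophage-like and blood endothelial-like cells are near or under the background. In T or NK-like and dendritic-like cells edgeR called 0 of 15 and 0 of 14, with 3 each at an unadjusted p under 0.05 and 1 and 0 by DESeq2.

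Each class was next compared with the mean of the other classes of its tissue. In skin, 43 of 224 member-class pairs were higher (15.4% of all gene-class pairs were) and 19 were lower (6.31%). In fascia, 72 of 217 were higher (24.2%) and 42 lower (15.9%). The members with the clearest class pattern were Epas1, P4ha2 and Ndufa4l2.

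Epas1 was highest in the vessel cells of both tissues, at the levels given above. Against the mean of the other classes its log2 difference was 6.97 ± 0.57 in mural-like (adjusted p = 5.53e-06) and 6.49 ± 0.57 in blood endothelial-like cells of skin (adjusted p = 9.27e-06), and 7.09 ± 0.19 and 6.99 ± 0.20 in fascia (adjusted p = 5.42e-10 and 4.07e-10). That mean is taken over log values. Epas1 was at 0 CPM in both libraries of dendritic-like and macrophage-like cells of skin and of B or plasma-like cells of fascia. The sizes therefore depend on how counts of 0 are handled. The 2 vessel classes overlapped with each other in both tissues. Lymphatic endothelial-like cells of skin followed at 35.46 and 32.35 CPM, and none of the other classes compared passed 14 CPM in any library. Outside the tests, 28 erythrocyte-like cells found in the second fascia library had 147.9 CPM. The mural list was the highest other list in these cells, with a median relative score of 0.323 against 1.714 for their own. Mural-like cells of that library had 240.8 CPM of Epas1, and their part in the erythrocyte-like value was not tested. Hif1a had a flatter order, from T or NK-like and blood endothelial-like cells, which overlapped in skin, through keratinocyte-like cells at 215.4 and 230.4 CPM to fibroblast-like cells. In fascia blood endothelial-like cells stood just above T or NK-like cells with no overlap. Blood endothelial-like cells were above the mean of the others for Hif1a by 1.27 ± 0.22 in skin (adjusted p = 0.000712) and 1.08 ± 0.10 in fascia (adjusted p = 3.71e-06), and fibroblast-like cells below it by -1.03 ± 0.26 (adjusted p = 0.00914) and -0.85 ± 0.12 (adjusted p = 7.19e-05). Egln3 was above the mean in keratinocyte-like cells (3.04 ± 0.51; adjusted p = 0.000748), with 57.12 and 51.37 CPM.

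P4ha2, whose enzyme hydroxylates collagen and which had the richest promoter shown above, was highest in fibroblast-like cells. It measured 390.1 and 287.8 CPM there in skin and 195.4 and 229.1 in fascia. The next classes were lymphatic endothelial-like cells at 53.18 and 47.05 in skin and blood endothelial-like cells at 37.54 and 34.86 in fascia, neither of which overlapped. The difference from the other classes was 5.71 ± 0.27 in skin (adjusted p = 4.73e-08) and 6.96 ± 0.21 in fascia (adjusted p = 6.02e-10). B or plasma-like cells of fascia were at 0 CPM in both libraries for P4ha2 and Ndufa4l2, as were dendritic-like cells of skin for P4ha2. Sizes in those comparisons depend on counts of 0 as well. Ndufa4l2 differed from the other skin classes in fibroblast-like (5.13 ± 0.46; adjusted p = 2.09e-06), mural-like (3.44 ± 0.49; adjusted p = 0.000168) and keratinocyte-like cells (2.65 ± 0.50; adjusted p = 0.00149), and in fascia most in mural-like cells (8.70 ± 0.26; adjusted p = 9.03e-10). Bnip3, a mitophagy receptor induced by HIF, was above the mean in fibroblast-like cells of skin (2.23 ± 0.24; adjusted p = 1.39e-05) and fascia (3.17 ± 0.13; adjusted p = 1.87e-09) and in blood endothelial-like cells of fascia (3.02 ± 0.13; adjusted p = 4.4e-09). Adm stood highest in lymphatic endothelial-like cells of skin, at 212.7 and 235.2 CPM, but these overlapped with keratinocyte-like cells at 100.7 and 227.3.

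The regulators of phosphofructokinase, Pfkfb3 and Pfkfb4, were above the mean of the other classes in macrophage-like cells. Pfkfb3 measured 78.25 and 158.5 CPM in skin macrophage-like cells and 119.7 and 148.9 in fascia, and differed from the other classes by 1.79 ± 0.33 (adjusted p = 0.0017) and 1.60 ± 0.11 (adjusted p = 2.09e-07). In keratinocyte-like cells it was at 4.986 and 8.413 CPM (-2.95 ± 0.34; adjusted p = 3.09e-05). Pfkfb4 was above the mean in skin macrophage-like (3.88 ± 0.45; adjusted p = 4.62e-05) and dendritic-like cells (3.81 ± 0.41; adjusted p = 1.71e-05). Eno2 was above it in fascia fibroblast-like cells (4.25 ± 0.27; adjusted p = 7.24e-08). Ddit4 was above the mean in fascia blood endothelial-like cells (2.45 ± 0.14; adjusted p = 5.01e-08) and below it in macrophage-like cells (-2.22 ± 0.21; adjusted p = 3.5e-06). A few classes were compared with no test because they were found in 1 library only. Among them, 57 skeletal muscle-like cells of the second skin library had 1.02% of UMIs from the members, of which 60.4% came from Gapdh.

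Within the epidermis and its appendages, 8 keratinocyte subsets were each compared with the mean of the others in the 2 skin libraries. Suprabasal cells, which lie above the basal layer, were higher for 14 of 31 members (11.3% of all genes were) and lower for 2 (3.13%). Basal cells were higher for 11 (11.7%) and lower for 1 (2.95%). Bulge-like cells of the hair follicle were higher for 10 (9.93%) and infundibulum-like cells for 6 (7.15%), and for lower levels edgeR called 0 in both (1.86% and 1.57% of all genes), with 1 and 2 at an unadjusted p under 0.05 and 0 and 1 by DESeq2. Sebaceous cells were higher for 5 (19.0%) and lower for 11 (14.1%). Cells of the inner root sheath or hair shaft were higher for 3 (15.9%) and lower for 10 (12.4%). Late-differentiating cells were higher for 1 (14.1%) and lower for 8 (14.1%). For cycling cells edgeR called 0 in either direction (7.93% higher and 2.7% lower over all genes), with 2 higher and 1 lower at an unadjusted p under 0.05 and the same numbers by DESeq2. The dissociation list also differed among subsets: it summed to 34540 and 33910 CPM in bulge-like, 9043 and 17450 in suprabasal and 7293 and 15420 in late-differentiating cells, and its part in these differences was not tested. Late-differentiating cells numbered only 40 and 31.

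**Figure D4:**
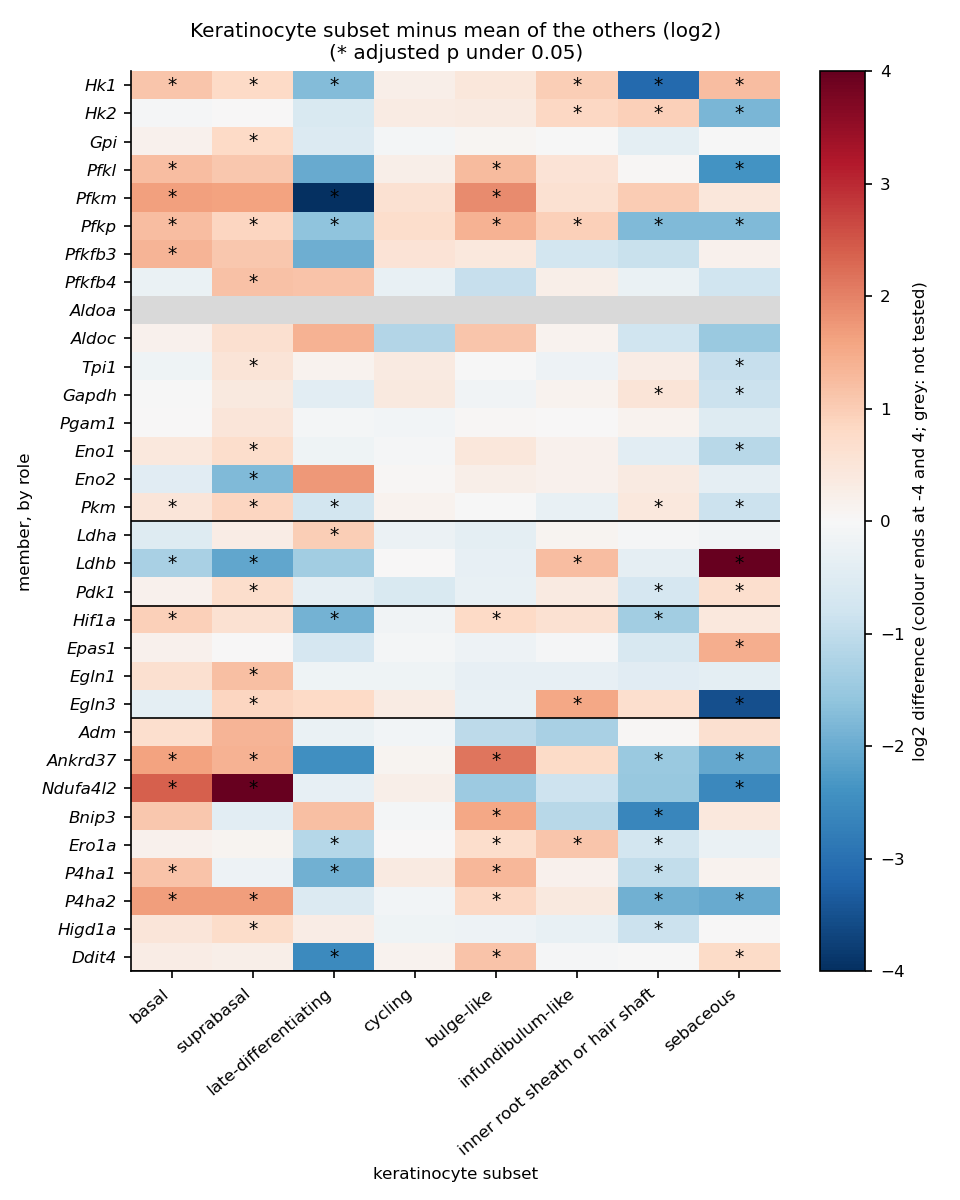
Difference of each keratinocyte subset from the mean of the others (log2; colour ends at -4 and 4) for the 32 members, in rows by role, in the 2 skin libraries; an asterisk marks an adjusted p under 0.05 and grey a member not tested. Suprabasal cells carry 14 red starred members, sebaceous cells 11 blue starred ones and cycling cells none.

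Ndufa4l2 was called higher in both layers of the epidermis. Suprabasal cells had 667.4 and 841.6 CPM and differed from the other subsets by 4.07 ± 0.47 (adjusted p = 0.00028). Basal cells had 192.3 and 611.0 CPM (2.38 ± 0.50; adjusted p = 0.0091), so the libraries of this subset differed widely but stayed below those of suprabasal cells. At 2000 UMIs a cell, 62.4% and 65.8% of suprabasal and 13.7% and 51.3% of basal cells had a UMI (93.1% and 57.7%, and 21.7% and 57.1%, without thinning), after 2 and 283 suprabasal and 48 and 1162 basal cells with fewer UMIs were left out. Hif1a had another order: basal cells stood first at 253.2 and 260.7 CPM, then bulge-like cells at 232.3 and 243.2. Suprabasal cells were lower at 158.2 and 191.5. The lowest were inner root sheath or hair shaft cells at 54.68 and 94.55 CPM (-1.40) and late-differentiating cells at 25.92 and 100.1 (-1.89 ± 0.32; adjusted p = 0.0012), which overlapped with each other.

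The 2 lactate dehydrogenase subunits were highest in different subsets. Ldhb measured 268 and 355 CPM in sebaceous cells, the lipid-making cells of the gland (4.22 ± 0.23; adjusted p = 6.5e-08), and was below the mean in suprabasal cells (-2.09). Ldha was above the mean in late-differentiating cells, at 792 and 464 CPM (0.99 ± 0.23; adjusted p = 0.0068). Its second library overlapped with inner root sheath or hair shaft cells, at 394.1 and 466.0. Hk1 was at 5.67 and 4.39 CPM in inner root sheath or hair shaft cells (-3.10 ± 0.25; adjusted p = 1.4e-05), the subset in which Hk2 (0.96) and Gapdh (0.52) were called higher. There the libraries overlapped with those of infundibulum-like cells for Hk2 and of cycling cells for Gapdh. Sebaceous cells were higher for Hk1 (1.22) and Epas1 (1.46) and lower for Egln3 (-3.52) and Gapdh (-0.85). Bulge-like cells were higher for Ankrd37 (2.13), P4ha1 (1.32) and Pfkp (1.38), and infundibulum-like cells for Egln3 (1.56). For all of these the libraries overlapped with those of another subset. This was basal cells for the bulge-like genes, with Pfkp at 115.9 and 100.9 CPM against 114.8 and 81.53. For Egln3 it was inner root sheath or hair shaft cells.

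**Figure D5:**
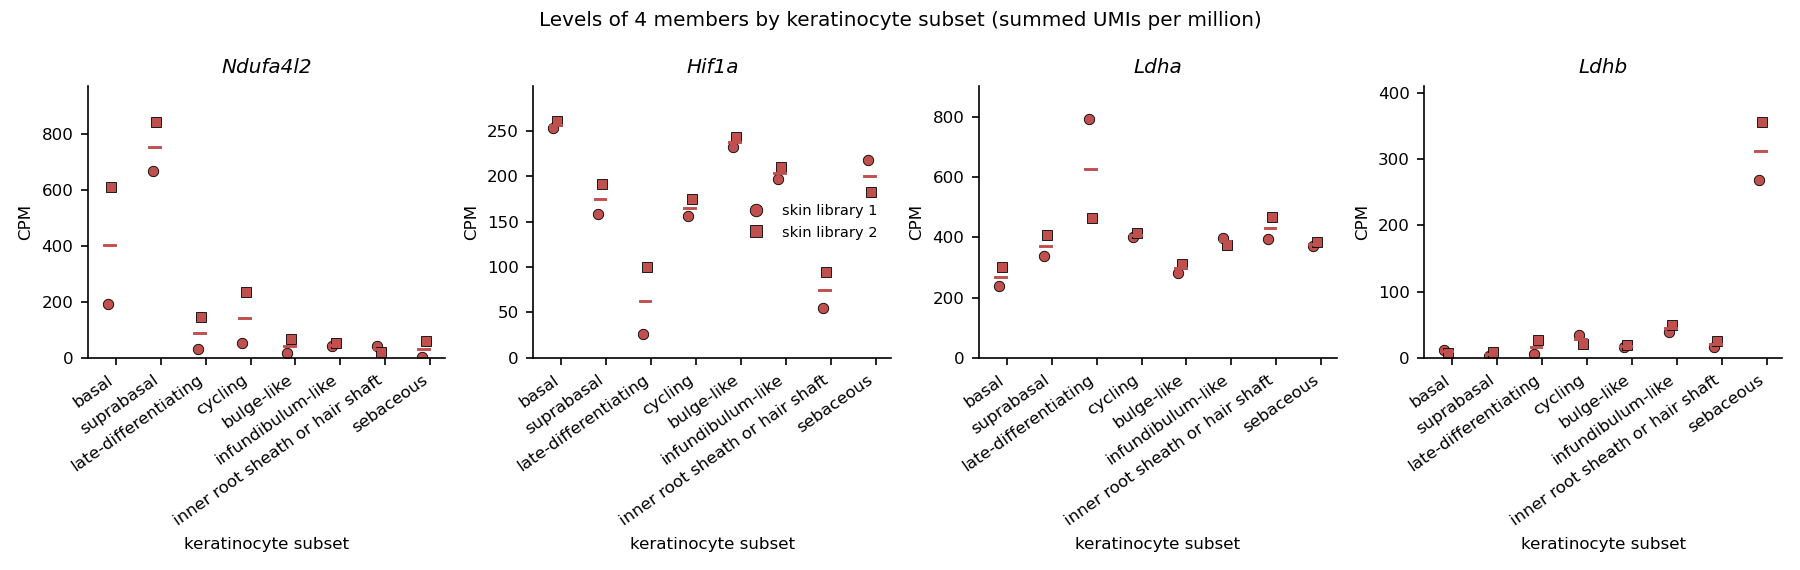
Levels of 4 members in CPM, on linear axes that start at 0, in 8 keratinocyte subsets; each point is 1 skin library and each bar their mean. Ndufa4l2 peaks in suprabasal cells at 667.4 and 841.6 CPM, Hif1a in basal cells, Ldha in late-differentiating cells and Ldhb in sebaceous cells at 268 and 355 CPM.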

How the data were processed

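The authors deposited filtered UMI count matrices for 4 droplet libraries, 2 of skin and 2 of subcutaneous fascia. The submitters' processing notes name Cell Ranger 6.0.1, STAR and the mRatBN7.2 build. The counts are whole numbers and were not normalized. Barcodes needed 500 genes, with no more than 20% of UMIs from mitochondrial genes, and doublets were removed by Scrublet's score in scanpy 1.11.5, or by the top scores at 0.8% per 1000 cells where its threshold had not worked. The gate gave a class to cells with a relative marker score of at least 0.4, at least 3 markers and no other lineage above 0.7 of the score. Between 11.4% and 23.9% of a library's cells got no class. Over 28318 gated cells the class was the one of the Leiden cluster (leidenalg 0.10.2) in 92.0%. CPM are UMIs of a gene per 1000000 UMIs of a class in a library.

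UMIs were summed per class and library and tested with edgeR 4.0.16 (R 4.3.3; TMM scaling, its filter on low counts, quasi-likelihood test, Benjamini-Hochberg adjustment over all genes, threshold 0.05). Fascia was compared with skin within a class with no block. Classes and subsets were compared within a tissue with the library as a block. A further test set a class's tissue difference against the mean of the other classes. The SE given after each log2 difference was back-calculated, as the size of that difference over the square root of the test's F value. The scripts were tested on simulated data. The alternatives were DESeq2 1.42.0, other scalings, other filters on genes and cells, a stricter gate, Leiden classes, kept doublets, a replicate block and libraries left out. Scaling by total counts, the crossed block and the leave-outs of libraries and members of the module share were chosen after seeing the data.

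Members and lists were chosen with earlier results of these data known. The rule for naming a member in a comparison was an adjusted p under 0.05 and at least 20 CPM in the higher group. It also took in the 2 members of each role with the highest CPM in a class, and always Hif1a, Epas1, Ndufa4l2, Gapdh and Ldha. Between classes and between subsets, not every member that met the rule is given. Some of those named (Egln3, Aldoc, Ankrd37 and the mural-like value of Pfkfb4 among them) were chosen after their values were seen. Classes with under 20 cells in a library were left out of the tests.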

Additional observations from a re-analysis of the deposited data

Results flagged for a closer look

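The values below are tissue differences of a member in one class, fascia minus skin in log2, set against the mean of the same difference in the other classes, where edgeR's test of that contrast passed over all genes. Ddit4 differed in 4 classes, at 1.27 in blood endothelial-like, 2.24 in dendritic-like, -2.02 in fibroblast-like and -2.67 in mural-like cells. Ndufa4l2 differed at -6.19 in fibroblast-like and 3.61 in mural-like cells. The mural-like value is set against a mean that includes the -9.10 of fibroblast-like cells. The mural-like difference itself was -0.98.

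Among the glycolytic enzymes, Hk2 differed at -2.79 in mural-like and 2.42 in dendritic-like cells, and Hk1 at -1.57 in blood endothelial-like and 1.59 in dendritic-like cells. Pfkp differed at -1.04 in blood endothelial-like and -1.02 in fibroblast-like cells. Gpi differed at 1.35 in dendritic-like and -1.30 in mural-like cells, and Pkm, the last enzyme of glycolysis, at -0.98 in blood endothelial-like cells. Pfkfb3 differed at 1.77 and Pfkfb4 at -2.46 in dendritic-like cells, and Pfkfb4 at -2.14 in macrophage-like cells. Among the effectors, Higd1a differed at -1.02 in blood endothelial-like and 1.56 in fibroblast-like cells, and P4ha1 at -1.43 in T or NK-like cells. A value here depends on the other classes and need not be a tissue difference of its own class. Hk1 and Hk2 in dendritic-like cells were not called between the tissues within that class. Neither was Pkm in blood endothelial-like nor Higd1a in fibroblast-like cells.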

How the results depend on the processing

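Of 289 results for named genes, 193 kept their direction and their side of the threshold under every alternative run. Of the values under alternatives, 109 of 730 for fascia against skin lost the call, as did 32 of 699 between fascia classes, 30 of 470 between skin classes, 48 of 552 between keratinocyte subsets and 11 of 119 for the difference across classes. A sign turned in 5 of them, none a called value: Gapdh in fibroblast-like cells with total counts as the only scaling (0.12) and without the first skin library (between -0.39 and 0.00 over the leave-outs), Gapdh in T or NK-like (between -0.05 and 0.66) and Ldha in macrophage-like cells (between -0.98 and 0.76) without that library, and Ldha in dendritic-like cells taken from Leiden clusters (-0.96). The Leiden classes leave out cluster 26, which held 63.4% and 45.5% of the skin dendritic-like cells. The cause of these turns was not tested.

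The count of called members became 11 with DESeq2 and 12 with no filter on low counts in fibroblast-like cells, and 5 in T or NK-like cells from Leiden clusters. With 1 library left out, the count over all classes lay between 11 and 53, and by class between 2 and 12 in fibroblast-like, 3 and 9 in blood endothelial-like, 2 and 12 in mural-like, 0 and 4 in macrophage-like, 1 and 10 in T or NK-like and 0 and 7 in dendritic-like cells. In these fits an arm holds 1 library, assumed to vary like the other tissue's. The ratio of the members' UMI share, fascia over skin, was 0.828 in dendritic-like cells as a mean over cells, in mural-like cells 0.845 without Gapdh, 0.845 without Ndufa4l2 and 0.796 with the stricter gate, and in fibroblast-like cells 0.967 without Ndufa4l2. With 1 library left out it lay between 0.836 and 1.08 in T or NK-like cells, where it passed 1 without the second fascia library, and between 0.644 and 0.793 in fibroblast-like, 0.838 and 0.914 in blood endothelial-like, 0.809 and 0.839 in mural-like, 0.715 and 0.868 in macrophage-like and 0.843 and 0.896 in dendritic-like cells.

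With the replicate block, 34 member-class pairs were called in place of 40, and in mural-like cells 5 in place of 9. Libraries of the 2 tissues share only a number: the correlation of same-numbered deviations lay between -0.162 and 0.019 over the 6 classes. With the numbers crossed, 44 pairs were called. Comparisons between classes or subsets keep the library as a block over 2 libraries, so no leave-out fit was possible there. Without that block the calls were 57 in place of 62 in skin, 109 in place of 114 in fascia and 61 in place of 82 between subsets. Classes left with under 20 cells in a library gave no value under the filters on 1000 genes or 2000 UMIs or the stricter gate. Depth limits the second skin library most.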
